A study of Equus caballus with 17 samples.

Results

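Small RNA of horse (Equus caballus) sperm was set against that of the adult testis in which sperm are made. The comparison used 8 of the 17 samples of the series: 4 labelled Sperm (numbers 1, 2, 3 and 4) and 4 labelled Adult (testis 13, 20, 33 and 4), chosen by the tissue and stage in their labels. The other 9 samples were testes of the younger stages Infant, Pre-puber and Puber, and enter only where levels over the stages are given. The labels used here give no age, breed, genotype or treatment for either group, and they do not say whether the samples came from separate animals, so the p-values reflect only how these samples varied. Sperm RNA had a shorter DNase treatment than testis RNA and an added phenol:chloroform purification, per the labels, so the effect of the preparation and that of the tissue cannot be told apart. Total counts were 2.86 to 6.66 M reads in Adult and 1.94 to 3.16 M in Sperm, of which 2.18 to 4.62 M and 1.48 to 2.26 M fell on annotated mature miRNAs.

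MicroRNAs (miRNAs) are short RNAs cut from hairpin precursors that guide silencing proteins to complementary messenger RNAs, mainly through their seed near the 5′ end. A testis holds germ cells at all steps from spermatogonia to spermatids together with Sertoli, Leydig, peritubular, blood and vessel cells. Ejaculated sperm make almost no new RNA and carry RNA left from earlier germ cells, along with RNA taken up on the way through the epididymis. Fragments of transfer RNA are known to be abundant in mammalian sperm, and the X chromosome is known to be silenced during male meiosis. In whole tissue, fewer cells of a type and less RNA per cell cannot be told apart.

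Most of the measurable miRNAs differed between sperm and testis, in both directions. Of 274 annotated miRNAs, 162 passed the filter on low counts, and 132 of these had an adjusted p under 0.05 (81.5%), by edgeR's quasi-likelihood test with Benjamini-Hochberg adjustment. Higher levels in Sperm were called for 68 (42.0%) and lower levels for 64 (39.5%). The levels of 121 (74.7%) did not overlap between the samples of the groups, 63 with Sperm above and 58 with Sperm below. A change of 16-fold or more was called downward for 31 miRNAs and upward for 12. The first principal component of log2(CPM + 1) held 91.0% of the variance and separated the groups. Pearson's r between samples over the 162 miRNAs was 0.96 to 0.994 within Adult, 0.961 to 0.978 within Sperm and 0.572 to 0.616 between them.

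Levels are given in CPM, read counts relative to the annotated total of the sample after TMM scaling, and the balance of rises and falls depended on that scaling. Scaling by the annotated total alone moved the median log2 fold change from 0.06 to -1.61 and gave 36 higher and 86 lower calls. A fit with the predicted hairpins included gave 47 and 78, scaling by the total without miR-191a gave 53 and 80, and a fit of all 17 samples gave 58 and 84. Under every one of the 6 scalings tried in the 8 samples, 36 miRNAs were called higher and 63 lower. With all libraries thinned to the smallest annotated total, 130 were called, 68 of them higher. Without Adult 20, the shallowest testis sample, the median moved to -0.51, with 61 higher and 73 lower calls. Of 68 called miRNAs named here, 18 then moved by over 1.5-fold, rises becoming smaller and falls larger.

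**Figure D1:**
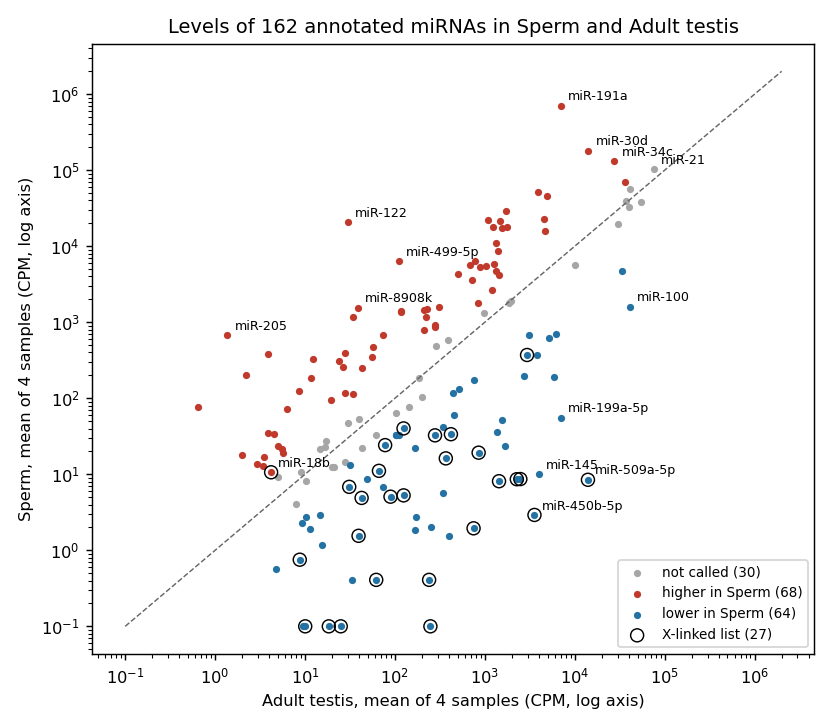
Mean level of each of 162 tested miRNAs in Adult testis (x axis, CPM, log axis) and Sperm (y axis, CPM, log axis), with 4 samples a group; levels under 0.1 CPM are drawn at 0.1, and the dashed line marks equal levels. Colours mark the 68 higher, 64 lower and 30 uncalled miRNAs. Rings mark the 27 miRNAs of a list of X-linked miRNAs (miR-106a is not in it), 26 of which were lower in Sperm.

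The sperm profile was led by miR-191a, a broadly expressed miRNA. Its share of annotated counts was 1.52, 0.715, 1.58 and 1.24% in Adult 13, 20, 33 and 4 and 37.8, 15.6, 48.6 and 51.6% in Sperm 1, 2, 3 and 4. On the TMM scale its level was 8243, 5036, 6842 and 7700 CPM in Adult and 625090, 244730, 886890 and 1066300 CPM in Sperm (log2 fold change 6.66, SE 0.52, adjusted p = 1.8e-17). Every Sperm sample stood far above every Adult sample, with Sperm 2 the lowest of the 4. TMM levels are relative to a typical miRNA and need not add up to the same total in each sample. The miR-30 family member miR-30d came next in Sperm. It held 15184, 17060, 9850 and 14544 CPM in Adult and 216660, 110600, 157030 and 241900 CPM in Sperm (log2 fold change 3.68, SE 0.43, adjusted p = 3.2e-11). Both groups were tight against that difference of 12.8-fold. It was followed by miR-34c, a miRNA of meiotic and later male germ cells.

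Levels of miR-34c were 31539, 26916, 23394 and 28048 CPM in Adult and 88899, 259670, 81003 and 91293 CPM in Sperm (log2 fold change 2.24, SE 0.42, adjusted p = 2.8e-06). Sperm 2 held far more than the other Sperm samples. Without it the rise of 4.74-fold became 3.11-fold. The call was lost when only the annotated total was used for scaling, when hairpins were fitted together with miRNAs, and when all 17 samples were fitted. miR-449a, which shares its seed with miR-34c, held 6324, 2961, 4713 and 5687 CPM in Adult and 38024, 88030, 21389 and 35024 CPM in Sperm (log2 fold change 3.21, SE 0.44, adjusted p = 3.9e-09). Its rise of 9.27-fold was 5.87-fold without Adult 20. Another leading miRNA, miR-340-5p, held 4415, 3886, 2707 and 4505 CPM in Adult and 35332, 111220, 26545 and 31450 CPM in Sperm (log2 fold change 3.72, SE 0.46, adjusted p = 1.6e-10). Both were again highest in Sperm 2, and the rise of miR-340-5p went from 13.2-fold to 7.90-fold without Sperm 2.

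Several miRNAs that lead the adult testis were also abundant in sperm. Of the 10 most abundant of each group, 6 were shared: miR-21, miR-10b, miR-99a, let-7a, miR-26a and miR-34c. The level of miR-21, common to many tissues, was 64231, 100230, 68191 and 68830 CPM in Adult and 85816, 180770, 69185 and 76039 CPM in Sperm (adjusted p = 0.28). The groups overlapped, and Sperm 2 was again the highest Sperm sample. For let-7a the levels were 35627, 43131, 24672 and 44773 CPM and 36186, 39640, 39703 and 43434 CPM (adjusted p = 0.81). The other overlapping leaders were miR-10b at 54528 ± 22514 CPM in Adult and 38270 ± 10449 CPM in Sperm (SD, n = 4 each; adjusted p = 0.22), miR-99a (adjusted p = 0.24), let-7g (adjusted p = 0.5) and let-7f (adjusted p = 0.14). Calls and directions of these leaders depended on the scale. let-7f, let-7g and miR-10b were called lower in Sperm with RLE size factors (log2 fold change -1.26, -0.93 and -1.14), with DESeq2, with all 17 samples fitted, with hairpins fitted together, with the annotated total and with the total without miR-191a, and let-7f also with upper quartile scaling and without Adult 33 (log2 fold change -0.84). With the annotated total alone, let-7a, miR-21 and miR-99a had log2 fold changes of -1.51, -1.13 and -1.13. Sperm values of miR-26a exceeded all Adult values (1.92-fold, log2 fold change 0.94, SE 0.39, edgeR adjusted p = 0.022), but the sign turned to -0.67 on that scale. Its call was also lost with RLE size factors, upper quartile scaling, the total without miR-191a, DESeq2, no filter and all 17 samples fitted. The same held without Adult 13, 20 or 4 (edgeR adjusted p = 0.078, 0.14 and 0.059).

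Germ cell lists moved in opposite directions. In the family that miR-34 forms with miR-449, 4 of 5 tested members rose (median log2 fold change 2.59, against 0.06 over all tested): miR-34c, miR-34b-5p, miR-449a and miR-449b. Under all 6 scalings, 2 higher and 1 lower calls of this family remained, miR-449a and miR-449b being the ones still higher. The fifth, miR-34a, which is made from another gene and is known as a p53 target in many cell types, fell, with 49.1 ± 9.86 CPM in Adult and 8.68 ± 2.03 CPM in Sperm (mean ± SD of 4 samples; log2 fold change -2.48, SE 0.54, adjusted p = 3.7e-05). miR-34b-5p, cut from the same precursor transcript as miR-34c, held 686 to 1027 CPM in Adult and 2816 to 11878 CPM in Sperm. Its rise of 6.03-fold was 3.54-fold without Sperm 2.

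All 4 tested members of the miR-506 family region, an X-linked cluster expressed mainly in testis, fell to nearly nothing. Its most abundant member, miR-509a-5p, held 13459, 17230, 9104 and 16308 CPM in Adult and 16.1, 4.90, 4.93 and 7.94 CPM in Sperm (log2 fold change -10.65, SE 0.63, adjusted p = 3.1e-22). No Sperm sample came near any Adult sample. No read of miR-514a was counted in any Sperm sample, against 272, 119, 327 and 275 CPM in Adult, which puts its level at least 384-fold lower (the floor for a count of 0 was 3 counts over the 4 Sperm samples). On the same floor miR-509b was at least 37.6-fold and miR-508-5p at least 26.6-fold lower, from 25 ± 10.3 and 18.4 ± 4.85 CPM in Adult (SD, n = 4). The list's median log2 fold change was -10.12 as fitted and -6.91 with the 3 undetected members at their bounds, and all 4 calls held under the 6 scalings.

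Of 7 miRNAs matched by name from a list reported in undifferentiated spermatogonia, 5 rose and 2 (miR-21 and miR-106a) were not called (median 1.91). Names in the list without an entry, among them miR-322, were not counted. miR-322 is the rodent name of miR-424, which fell 381-fold (log2 fold change -8.57). The counts and median of this list therefore leave out a large fall. Over all tested miRNAs, 42.0% were higher and 39.5% lower. Under all 6 scalings 2 of the 5 rises held. Among those that rose, miR-146b-5p stood at 822, 904, 1301 and 1321 CPM in Adult and 27634, 21103, 13385 and 25547 CPM in Sperm (log2 fold change 4.33, SE 0.45, adjusted p = 7.5e-13). Its relative miR-146a, known from innate immune signalling, rose 4.59-fold with Sperm values from 2501 to 10179 CPM. miR-135a rose 33.6-fold (26 to 49 CPM in Adult, 537 to 1879 CPM in Sperm), or 22.1-fold without Adult 20. miR-96, miR-182 and miR-183, which come from 1 transcript, all rose (median 3.14, 2 of them under all 6 scalings), with miR-183 at 5.07 to 16.5 CPM in Adult and 109 to 294 CPM in Sperm. In the miR-17-92 cluster and its paralogs, known for promoting proliferation, 5 of 8 rose, miR-20b fell, and miR-17 and miR-106a were not called, while under all 6 scalings 2 higher and 1 lower remained. miR-17 and miR-106a carried nearly the same counts (at least 0.921 of each other in every sample), so they cannot be read as separate measurements. miR-93 led the rises (1353, 2058, 1364 and 1512 CPM in Adult, 29802, 14967, 9807 and 13962 CPM in Sperm; log2 fold change 3.45, SE 0.44, adjusted p = 4.9e-10).

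miR-122, the dominant miRNA of liver, held 40.8, 21, 16.5 and 42.3 CPM in Adult and 17872, 15533, 25213 and 24426 CPM in Sperm (log2 fold change 9.42, SE 0.58, adjusted p = 1.2e-21). The groups lay far apart, and this rise of 687-fold was the largest of the 162. miR-205, an epithelial miRNA, held 1.27, 1.29, 1.60 and 1.33 CPM in Adult and 664, 512, 1191 and 337 CPM in Sperm (log2 fold change 8.90, SE 0.69, adjusted p = 2e-17). It was close to the detection limit in every Adult sample. miR-499-5p, encoded in a myosin gene and known from heart and slow muscle, held 113, 77.6, 106 and 143 CPM and 5698, 9611, 4290 and 5907 CPM (log2 fold change 5.86, SE 0.51, adjusted p = 1.3e-15), and its rise of 58-fold was 38.3-fold without Adult 20. Levels of miR-124, the main miRNA of neurons, were 0.319, 0, 0.47 and 1.77 CPM and 86.2, 43.3, 99.8 and 79.4 CPM (log2 fold change 6.73, SE 0.69, adjusted p = 5.8e-13). Its rise of 106-fold was 215-fold without Adult 4 and 68.2-fold without Adult 20.

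Of the other miRNAs among the 12 largest rises, miR-216b, a pancreatic miRNA, rose 96.5-fold, with 1.94 to 7.17 CPM in Adult and 240.5 to 618 CPM in Sperm. miR-212, induced by the CREB factor in neurons, rose 88.9-fold, with 1.75 to 3.10 CPM in Adult and 106 to 324 CPM in Sperm. The horse-numbered miR-8908k rose 39.98-fold, with 24.9 to 57.8 CPM in Adult and a narrow 1278 to 1780 CPM in Sperm. miR-190b rose 27.1-fold, with 8.27 to 15.3 CPM in Adult and 249 to 536 CPM in Sperm, where Sperm 2 was highest. miR-16, a repressor of cell cycle genes, held 1537, 1118, 2395 and 1862 CPM in Adult and 41791, 35090, 24953 and 15355 CPM in Sperm (log2 fold change 4.08, SE 0.45, adjusted p = 5.4e-12), a rise of 17-fold that was 10.3-fold without Adult 20. All 5 tested miRNAs of a list of pancreas and gut (miR-192, miR-194, miR-215, miR-216b and miR-217), put together after the values were seen, rose, with a median log2 fold change of 3.60 and a summed level of 148 to 245 CPM in Adult and 2033 to 3069 CPM in Sperm.

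**Figure D2:**
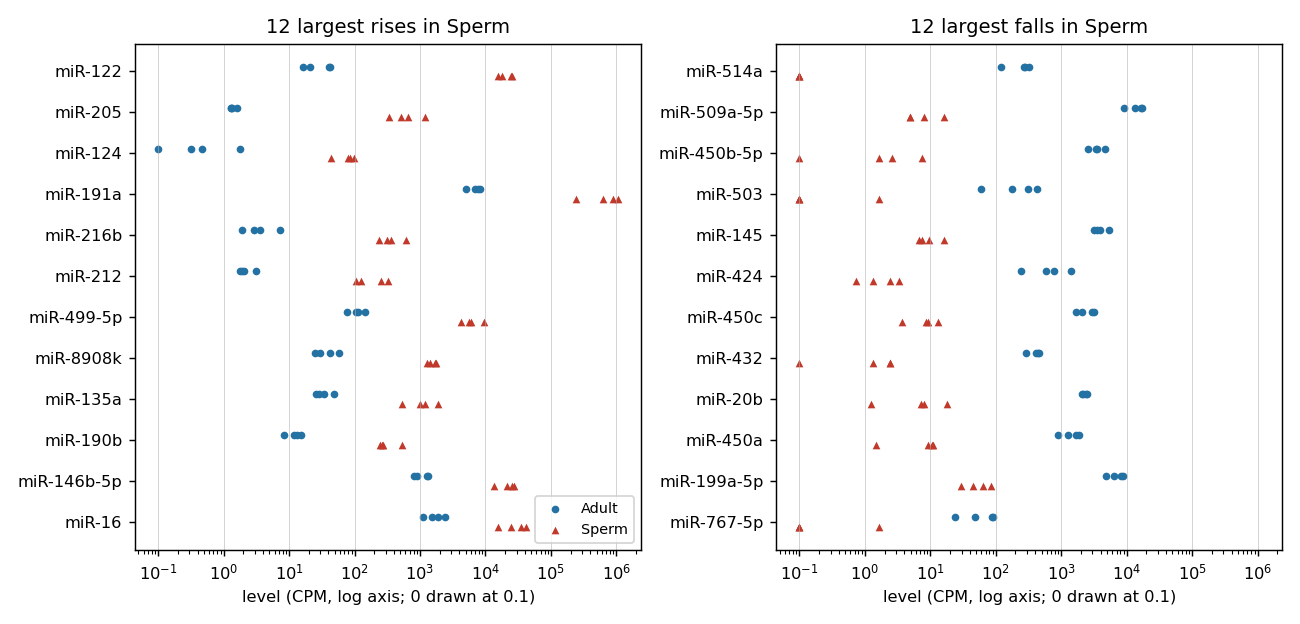
Level in each of 4 Adult (circles) and 4 Sperm (triangles) samples (x axis, CPM, log axis, 0 drawn at 0.1) for the 12 largest rises and the 12 largest falls with no overlap between groups and a group mean of 50 CPM or more. The miR-122 values lie at 16.5 to 42.3 CPM in Adult and 15533 to 25213 CPM in Sperm, and miR-514a is at 0 in all Sperm samples.

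Of the 12 largest falls, 5 came from 1 X-linked cluster. All 6 tested miRNAs of the miR-424, miR-503, miR-450 and miR-542 cluster fell (median -8.43 as fitted, -8.37 with miR-542-5p at its bound) under each of the 6 scalings, and their summed level was 6422 to 10630 CPM in Adult and 5.85 to 30.2 CPM in Sperm. miR-450b-5p held 3451, 3532, 2555 and 4724 CPM in Adult and 0, 1.63, 7.39 and 2.65 CPM in Sperm (log2 fold change -10.41, SE 0.72, adjusted p = 1.9e-19). Its fitted fall was 2770-fold in place of 1364-fold without Sperm 3, the highest Sperm sample. miR-424, which shares the miR-16 seed, held 244 to 1399 CPM in Adult and 0.731 to 3.27 CPM in Sperm, and its fall of 381-fold was 704-fold without Adult 20. miR-450c held 1671 to 3197 and 3.65 to 13.1 CPM. miR-450a held 908 to 1873 and 1.46 to 11.1 CPM, a fall of 182-fold that was 274-fold without Adult 20. Only 2 reads of miR-503 were counted in Sperm, both in Sperm 2, which gives a ratio of 529 (95% exact interval 146 to 4370, for counting error only). miR-767-5p also rested on 2 Sperm reads in that sample, with a ratio of 120.4 (95% exact interval 33.3 to 995), and its cluster partner miR-105 fell 23.5-fold.

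The 3 tested miRNAs of stroma and smooth muscle fell, also under each of the 6 scalings. They had a summed level of 10090 to 14700 CPM in Adult and 65.8 to 152 CPM in Sperm. miR-145, the smooth muscle miRNA, held 3133, 3486, 5405 and 3943 CPM in Adult and 9.50, 16.3, 7.39 and 6.62 CPM in Sperm (log2 fold change -8.61, SE 0.60, adjusted p = 2.8e-19), and its fall of 391-fold was 601-fold without Adult 20. miR-199a-5p, of fibroblasts, held 8178, 4827, 6506 and 8732 CPM and 29.2, 63.8, 83.8 and 45 CPM (log2 fold change -7.00, SE 0.54, adjusted p = 1.8e-17), and miR-199b-5p fell 37.5-fold (56.9-fold without Sperm 2). The endothelial miR-126-5p fell 8.04-fold and did not reach 0, with 215 to 471 CPM in Adult and 38.2 to 52.9 CPM in Sperm. Of the gonadal soma list, miR-140-5p and miR-383 were not called (adjusted p = 0.22 and 0.19), and miR-212 rose. The levels of miR-383 did not overlap, and it was called lower with RLE size factors (log2 fold change -1.35), DESeq2, all 17 samples, hairpins fitted together, the annotated total, the total without miR-191a, and without Adult 20 (log2 fold change -1.13).

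Of 5 tested miRNAs of blood cells, 2 rose, 0 fell and 3 were not called, against 42.0% higher and 39.5% lower over all tested, and 1 of the 2 rises held under all 6 scalings. miR-155 of activated leukocytes rose (719, 591, 516 and 892 CPM in Adult, 6481, 4717, 5152 and 6421 CPM in Sperm; log2 fold change 3.07, SE 0.44, adjusted p = 9e-09). miR-451, of red cells, was high in Adult 33 alone among the testes, at 64.4, 63.7, 696 and 92.2 CPM in Adult and 821, 1989, 1550 and 1582 CPM in Sperm (log2 fold change 2.69, SE 0.56, adjusted p = 2e-05). Its rise of 6.47-fold was 20.2-fold without Adult 33 and 3.10-fold without Adult 20, where the call was lost (adjusted p = 0.088). The leukocyte miRNAs miR-142-5p (121 to 316 CPM in Adult, 84.7 to 275 CPM in Sperm) and miR-150 (adjusted p = 0.11) and the red cell miR-486-5p (adjusted p = 0.38) were not called. No defining blood marker was at 0 in either group, the summed level of the 5 was 1319 to 3772 CPM in Adult and 7919 to 10120 CPM in Sperm, and their part in the other differences was not tested. The neural list split into 3 higher (miR-124, miR-7 and miR-9a), 3 lower and 1 uncalled of 7, against the same 42.0% and 39.5%. The uncalled miR-218 was called lower with RLE size factors, upper quartile scaling, the annotated total, the total without miR-191a and hairpins fitted together. It was also called lower with DESeq2, no filter, all 17 samples fitted, and without Sperm 2 (log2 fold change -1.22). Under all 6 scalings 1 of the 3 rises of the list and the 3 falls held, and miR-7 and miR-9a lost their calls with the annotated total. Of the falls, miR-129a-5p and miR-129b-5p carried nearly the same counts (at least 0.991 of each other in every sample), so they are 1 measurement.

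Members of 1 family often stood apart, and their ratio within a sample does not depend on the scaling. The pairs given here were chosen after the values were seen and were not tested. miR-99a and miR-100, which differ by a single base in mammals, were about equally abundant in testis: reads of miR-100 per read of miR-99a were 0.798, 1.03, 1.24 and 1.09 in Adult 13, 20, 33 and 4. In Sperm 1, 2, 3 and 4 they were 0.0272, 0.03, 0.0264 and 0.0297. On the TMM scale miR-100 fell 25.8-fold (log2 fold change -4.69, SE 0.46, adjusted p = 8.8e-14) and miR-99a was not called. In the miR-15 and miR-16 family, which shares a seed, miR-16, miR-15a and miR-15b rose, and miR-195 and miR-497, from a cluster of their own, fell, with 1 higher and 2 lower under all 6 scalings. Reads of miR-195 per read of miR-16 were 0.884, 0.826, 1.09 and 0.958 in Adult and 0.000647, 0.001, 0.00104 and 0.000345 in Sperm. miR-195 itself held 923 to 2614 CPM in Adult and 5.29 to 35.1 CPM in Sperm, a fall of 70.4-fold that was 121-fold without Adult 20. miR-497 fell 117-fold, or 190.0-fold without Adult 20 and 243-fold without Sperm 2, and miR-15b rose 6.80-fold, or 4.02-fold without Adult 20.

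The miR-17 paralogs also divided. miR-20b, from the X-linked copy of the cluster, held 2141, 2054, 2410 and 2468 CPM in Adult and 7.31, 18, 1.23 and 7.94 CPM in Sperm (log2 fold change -7.99, SE 0.63, adjusted p = 3.8e-17), and its fall was 405-fold in place of 254-fold without Sperm 2. miR-20a, from the autosomal copy, held 932 to 1972 CPM in Adult and 2194 to 7158 CPM in Sperm, a rise whose sign turned (log2 fold change -0.16) with the annotated total alone and whose call was lost without Adult 20 (adjusted p = 0.13). Reads of miR-20b per read of miR-20a were 1.38, 2.20, 1.22 and 1.83 in Adult and 0.00169, 0.00251, 0.000561 and 0.00282 in Sperm. In the let-7 family, let-7c, let-7e and miR-98 fell, let-7d rose, and let-7a, let-7f and let-7g were not called. Under all 6 scalings the 3 falls held and the rise of let-7d did not. Reads of let-7c per read of let-7a were 0.77 to 1.16 in Adult and 0.0933 to 0.13 in Sperm. Of the HOX-cluster miRNAs, miR-10a rose 8.09-fold and miR-10b was not called, with ratios of miR-10a to miR-10b of 0.00836, 0.0176, 0.00766 and 0.0179 in Adult and 0.119, 0.226, 0.203 and 0.134 in Sperm. All 4 tested members of the miR-30 family rose (median 3.78), 3 of them under all 6 scalings. miR-30c rose 4.93-fold, miR-30b 14.7-fold (9.34-fold without Adult 20) and miR-30e 14.7-fold (9.10-fold without Adult 20).

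Of 13 tested miRNAs of the imprinted DLK1-DIO3 region, a large cluster expressed from the maternal chromosome, 9 fell, 2 rose and 2 were not called (median -3.46). Under all 6 scalings the 9 falls held and no rise did. miR-432 fell the most, from 416, 445, 288 and 459 CPM in Adult to 0, 2.45, 2.46 and 1.32 CPM in Sperm (log2 fold change -8.06, SE 0.75, adjusted p = 2.1e-14). miR-379, the most abundant member in testis, fell 31.4-fold (to 159 to 267 CPM), miR-409-5p fell 30.5-fold and miR-411 fell 4.46-fold. miR-382 went the other way, from 234, 224, 138 and 291 CPM to 987, 801, 1960 and 995 CPM (log2 fold change 2.42, SE 0.48, adjusted p = 8.5e-06), though its call was lost with the annotated total alone. Reads of miR-382 per read of miR-379, which lie in the same cluster, were 0.0584, 0.0195, 0.0514 and 0.0524 in Adult and 6.14, 3.00, 11.7 and 6.27 in Sperm. The other member that rose was miR-431, a low one at 2.36 to 5.17 CPM in Adult.

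**Figure D3:**
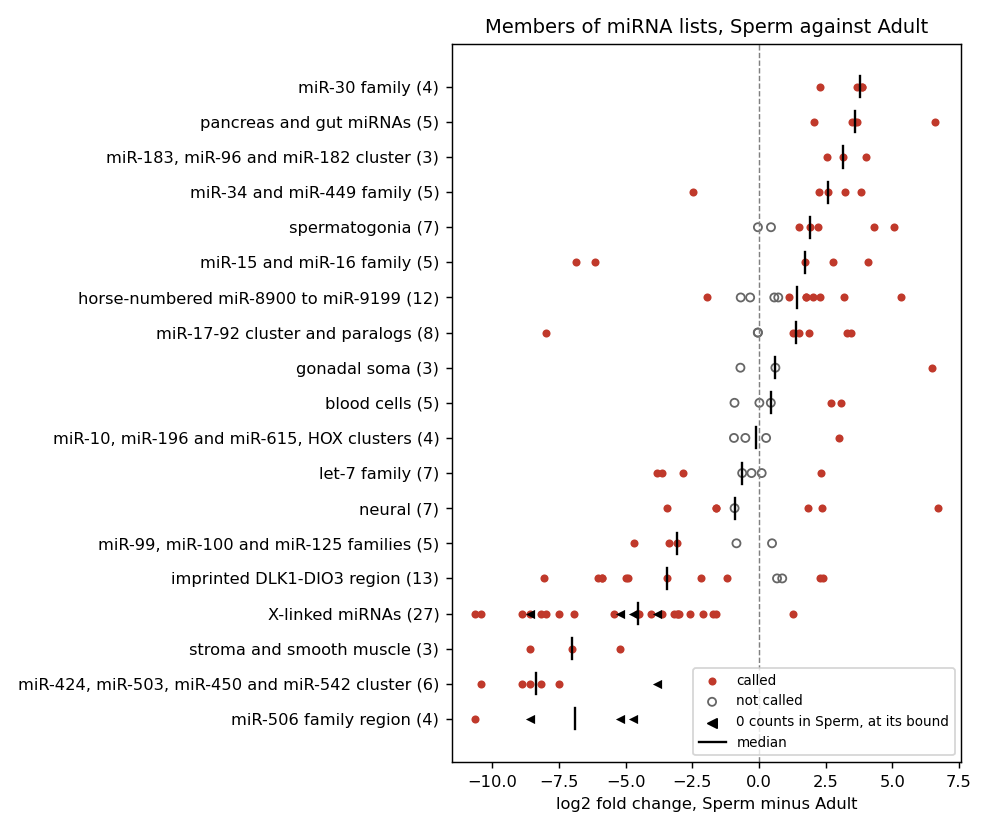
Log2 fold change (x axis, Sperm minus Adult) of every tested member of the lists with at least 3 tested members, with the number tested in brackets. The list of the miR-8908 family is not drawn. Filled points were called, open points were not, black triangles are members with no read in any Sperm sample drawn at their bound, and bars are medians, which run from -8.37 for the miR-424, miR-503, miR-450 and miR-542 cluster to 3.78 for the miR-30 family.

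X-linked miRNAs formed much of the lower side. A list of 27 tested miRNAs known to lie on the X chromosome of mammals, put together after the values were seen, held 26 that fell and 1 that rose, with a median log2 fold change of -4.55 when undetected members were set at their bounds. All 26 fell under each of the 6 scalings. They made up 40.6% of the 64 falls. Among the other 135 tested miRNAs, 67 rose, 38 fell and 30 were not called (median 0.87). The summed level of the list was 23420 to 35360 CPM in Adult and 425 to 902 CPM in Sperm. The exception in the list was miR-18b, at 1.62 to 7.52 CPM in Adult and 6.54 to 13.6 CPM in Sperm. It is nearly identical in other mammals to the autosomal miR-18a, so both may share reads. miR-106a, in 1 cluster with miR-20b and miR-18b, was not put in the list, and its counts were nearly those of miR-17. It was not called (log2 fold change -0.04, adjusted p = 0.93) and is among the other 135. Fallen members outside the clusters above included miR-374a (43.1-fold), miR-532-5p (7.94-fold) and miR-361-5p (3.08-fold). The horse miR-8908 genes neighbour each other in the RefSeq gene table of another horse assembly (TB-T2T), and of their 4 tested miRNAs 3 rose. Under all 6 scalings 1 of these 3 rises held. miR-8908j rose 3.39-fold, and its call was lost with the annotated total, with hairpins fitted together and with all 17 samples fitted. miR-8908g, whose groups overlapped, lost its call without Adult 20, Adult 33 or Sperm 2 (edgeR adjusted p = 0.39, 0.051 and 0.2). It turned to a log2 fold change of -0.53 with the annotated total alone. Of 72 horse-numbered names 12 could be tested, of which 7 rose, 1 fell and 4 were not called. No read was counted for 42 of the 72 in any Sperm sample and for 30 in any Adult sample. These zeros were not matched for depth, with annotated totals of 2.18 to 4.62 M in Adult and 1.48 to 2.26 M in Sperm.

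In that RefSeq table, 161 of the 162 tested miRNAs had a gene and 147 a single place, and 63 of these formed 19 clusters of genes at most 50000 bases apart. In 12 clusters all members were called in 1 direction, and in 3 clusters there were calls in both, where 42.0% of all tested miRNAs were called higher and 39.5% lower. Clusters that rose in full included miR-30d with miR-30b, miR-216b with miR-217, and miR-449a with miR-449b. Clusters that fell in full included miR-99b with miR-125a-5p and let-7e, and the 6 tested miRNAs around miR-532-5p and miR-660.

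Fewer miRNAs reached 5 counts in sperm at a matched total. With each sample thinned to 1481718 annotated counts, miRNAs with at least 5 counts numbered 170, 163, 173 and 170 in Adult and 138, 144, 143 and 130 in Sperm. The difference of -30.2 had p = 0.0286 by an exact permutation test (two-sided), which is as low as 4 against 4 samples can reach, and an adjusted p = 0.0571 over the 2 exact tests made. The matched total includes miR-191a, whose larger share in Sperm leaves fewer counts for the other miRNAs there. With miR-191a left out and each sample thinned to 754442 other counts, an alternative chosen after seeing the data, the numbers were 159, 150, 161 and 157 in Adult and 130, 130, 142 and 130 in Sperm (difference -23.8, exact two-sided permutation p = 0.0286). A rule on unthinned counts asked for at least 5 counts in all samples of 1 group and in no sample of the other. With a mean of at least 5 CPM, 15 miRNAs met it for Adult and 1 for Sperm. Annotated totals were 2.18 to 4.62 M in Adult and 1.48 to 2.26 M in Sperm, so depth favours Adult in this rule. Some of the 15 had a few Sperm reads, such as miR-330 with 11 and miR-1248 with 10 in all. Among the 15 were miR-514a, miR-503, miR-424, miR-432 and miR-767-5p, described above. Also among them were miR-299, at 33 ± 3.49 CPM in Adult (SD, n = 4), miR-138, at 15.5 ± 5.38 CPM, miR-330, at 14.7 ± 3.29 CPM, miR-1248, at 9.16 ± 10.4 CPM with most of its reads in Adult 33, miR-502-5p, at 8.74 ± 2.20 CPM, and miR-675, whose precursor is the imprinted H19 RNA. miR-675 had 242 reads in Adult and 0 in Sperm (at least 12.5-fold lower), and miR-542-5p 272 and 0 (at least 14.1-fold lower). The miRNA that met the rule for Sperm was miR-885-5p, with 10, 8, 28 and 21 counts in Sperm 1, 2, 3 and 4 and 0, 3, 0 and 1 in Adult. It did not pass the filter on low counts.

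The table also held 1461 predicted hairpins, given by sequence and EquCab3.0 position without a miRNA name. They took 14.9, 12.9, 19.1 and 14.1% of all counts in Adult 13, 20, 33 and 4 and 21.7, 12.7, 14.9 and 21.5% in Sperm (difference 2.44 percentage points, exact two-sided permutation p = 0.314, and 1.11 to 4.11 points with 1 sample left out). A single hairpin made up much of each group's share, and a different one in each. Hairpins that lead either group are shown to make them recognisable, with capitals at bases 2 to 8, the seed position if the 5′ end is the mature end. Names in brackets are background knowledge of the sequence, not entries of the table. Which end is mature was not examined, so capitals need not mark the seed of the miRNA named.
chr1:594419-594474, plus strand (miR-202): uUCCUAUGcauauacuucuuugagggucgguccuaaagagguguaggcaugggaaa
chr6:80187889-80187965, plus strand (let-7i): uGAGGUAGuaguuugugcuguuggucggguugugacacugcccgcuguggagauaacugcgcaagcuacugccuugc
chr11:24247096-24247154, minus strand (miR-152): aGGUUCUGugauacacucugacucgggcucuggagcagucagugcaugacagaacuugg
chr6:7834344-7834399, plus strand (miR-26b): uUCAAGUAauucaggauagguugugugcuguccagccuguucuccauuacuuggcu
chr20:63894235-63894290, minus strand: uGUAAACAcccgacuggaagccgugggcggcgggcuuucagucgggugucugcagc
chrX:119901739-119901793, minus strand: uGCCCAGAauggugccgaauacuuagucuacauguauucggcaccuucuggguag
chrX:119911163-119911218, minus strand: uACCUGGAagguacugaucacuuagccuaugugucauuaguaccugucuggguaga

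The hairpin of miR-202, a miRNA of gonads known from Sertoli and germ cells, took 27.3, 39.9, 59.3 and 31% of hairpin counts in Adult 13, 20, 33 and 4. Its level was 30445, 47667, 70844 and 36661 CPM in Adult and 488, 464, 161 and 122 CPM in Sperm (log2 fold change -7.23, SE 0.64, adjusted p = 2.9e-14). This was the largest fall among hairpins with a group mean of at least 50 CPM and no overlap between groups. In Sperm the leading hairpin was the one on chr20, whose bases 2 to 8 are the seed of the miR-30 family and are shared by no other of the 1461 hairpins. Its start resembles miR-30d, so reads of both may be split between them. It took 57.1, 22.9, 41 and 70.3% of hairpin counts in Sperm 1, 2, 3 and 4, with levels of 2590, 3002, 1468 and 3983 CPM in Adult and 285510, 58712, 146270 and 426680 CPM in Sperm (log2 fold change 6.38, SE 0.61, adjusted p = 3.9e-13). Sperm 2 was the lowest Sperm sample here, as it was for miR-191a. On the same scale, no annotated miRNA but miR-191a had a higher mean in Sperm.

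The pair on the X chromosome rose. Of 21 tested hairpins on that chromosome, 12 were called higher (57.1%), 4 lower (19.0%) and 5 were not called, against 46.3% higher and 18.8% lower over all 611 tested hairpins. The 2 hairpins shown hairpins lie 9370 bases apart on the same strand. The one at chrX:119901739-119901793 held 569, 414, 482 and 432 CPM in Adult and 33938, 30242, 34458 and 23807 CPM in Sperm (log2 fold change 6.01, SE 0.57, adjusted p = 2.3e-13). The other held 381, 257, 463 and 326 CPM and 4202, 12318, 4284 and 4402 CPM (log2 fold change 4.14, SE 0.56, adjusted p = 7e-09), with Sperm 2 well above the rest. The let-7i hairpin fell 2.58-fold (16812 to 31459 CPM in Adult, 4992 to 11231 CPM in Sperm), the miR-152 hairpin fell 8.58-fold, and the miR-26b hairpin rose 7.27-fold (13324 to 38051 CPM in Sperm). At chr2:51365772-51365825 (minus strand), a hairpin with the sequence of miR-320 rose 24.9-fold, with 425 to 663 CPM in Adult and 4932 to 23868 CPM in Sperm.

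Over all hairpins, 611 passed the filter and 398 (65.1%) were called by the edgeR test, 283 (46.3%) higher and 115 (18.8%) lower, with the scaling factors of the annotated miRNAs. The split followed the scaling: with the annotated total alone 112 were higher and 249 lower, with RLE size factors 200 and 159, and scaled on the hairpins themselves 169 and 237. Under all 4 of these scalings 110 were called higher and 114 lower. The next hairpins are taken from the largest rises and falls among those with a group mean of at least 50 CPM and no overlap between groups. Of the 6 largest rises, 4 are shown, beside the X-chromosome hairpin that had the largest fall after that of miR-202, with capitals at CG dinucleotides.
chr3:101334449-101334508, minus strand: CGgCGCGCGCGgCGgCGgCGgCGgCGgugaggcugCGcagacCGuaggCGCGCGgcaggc
chr26:2692782-2692839, minus strand: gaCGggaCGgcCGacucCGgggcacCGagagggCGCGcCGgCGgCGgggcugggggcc
chr3:120172937-120173004, minus strand: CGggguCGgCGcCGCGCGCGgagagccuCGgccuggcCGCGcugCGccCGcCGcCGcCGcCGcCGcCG
chr5:55991741-55991805, plus strand: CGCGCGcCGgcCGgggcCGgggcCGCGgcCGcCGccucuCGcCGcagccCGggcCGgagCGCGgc
chrX:98954634-98954697, minus strand: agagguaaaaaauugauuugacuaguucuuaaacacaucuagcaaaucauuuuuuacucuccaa

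The first of these, with 15 CG dinucleotides in its 60 bases, had no read in any Adult sample and 233, 105, 747 and 504 CPM in Sperm, at least 3081-fold higher. The second had none in Adult and 616, 209, 384 and 189 CPM in Sperm, at least 3337-fold higher, and the chr5 hairpin was at least 1271-fold higher. The hairpin at chr3:120172937-120173004 had 6 reads in all Adult samples together, and 1153, 616, 1866 and 899.7 CPM in Sperm (log2 fold change 12.16, SE 0.86, adjusted p = 2.8e-17). The other 2, at chr8:94388496-94388564 (plus strand) and chr8:78292086-78292135 (minus strand), had 1 read each in Adult and 329 to 1039 and 136 to 929.7 CPM in Sperm. Their ratios were 17921 (95% exact interval 3214 to 708080) and 14313 (2566 to 565600). Every Sperm sample held all 6. The hairpin at chrX:98954634-98954697 held 313, 147, 346 and 292 CPM in Adult and 8.77, 21.3, 6.16 and 5.29 CPM in Sperm (log2 fold change -4.69, SE 0.65, adjusted p = 1.6e-08). Large falls were also seen at chr10:28191789-28191835 (minus strand; 31.5 to 93 CPM in Adult, 0 to 4.90 CPM in Sperm) and chr26:16454284-16454370 (plus strand; 36 to 85.3 and 0 to 6.54 CPM).

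Hairpins rich in G and C are described here by composition, and these values support no other result. A hairpin with few or no Adult reads could pass the filter on low counts only through its Sperm reads, so the tested hairpins are not a sample of all of them. After hairpins of identical sequence or counts were collapsed, 508 tested hairpins remained, of which 42 had over 70% G and C. Of these 42, 37 were called higher and 0 lower, with a fitted median log2 fold change of 8.88, and 16 had no read in any Adult sample. Among the 82 hairpins under 40% G and C, 16 were called higher and 31 lower (median -0.53). Median GC content was 52.5% in the 236 called higher, 44.4% in the 88 called lower, and 76.5% in the 55 that were higher by 64-fold or more. CG dinucleotides per 100 bases had medians of 1.79, 0 and 11.6 in the same groups. Before the filter, 134 collapsed hairpins had over 70% G and C, of which 92 were not tested. The summed level of all 134 was 1228, 942, 322 and 1177 CPM in Adult 13, 20, 33 and 4 and 9054, 3017, 7788 and 6054 CPM in Sperm 1, 2, 3 and 4. Every Sperm sample was above every Adult sample on this TMM scale, the only one used for these sums. With the annotated total alone, the median log2 fold change of tested hairpins went from 1.13 to -0.645. The separation of the sums need not hold on that scale. The preparation of the RNA differed with the group, and its part in this pattern was not tested.

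**Figure D4:**
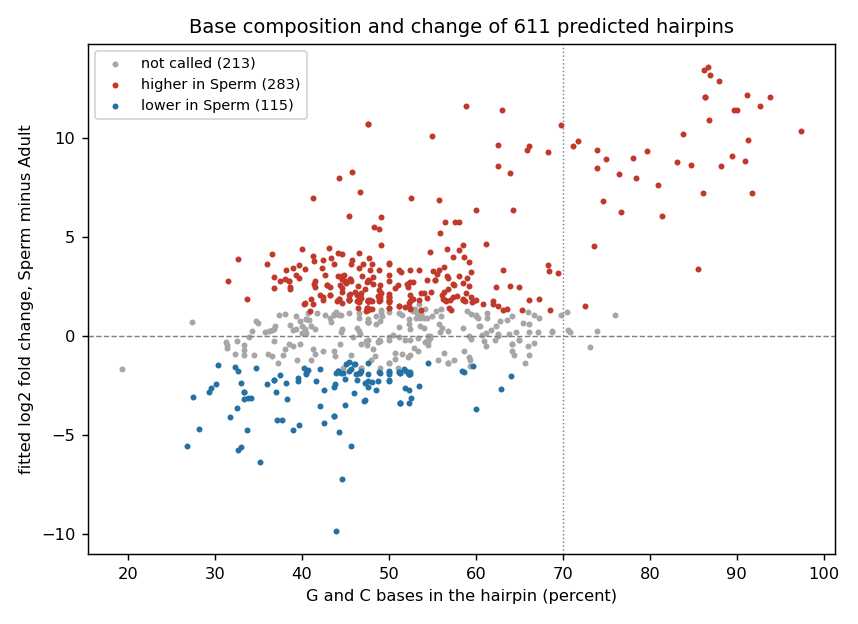
Fitted log2 fold change (y axis, Sperm minus Adult) against the percentage of G and C bases (x axis) for 611 tested predicted hairpins, 1 point each; the dotted line marks 70%. To the right of the dotted line points are higher in Sperm or uncalled, and none is lower.

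The largest family, of 257 hairpins that share runs of 18 bases as copies of a repeat do, had 236 tested, 122 called higher and 41 lower, with a median of 1.38 against 1.13 over all 611. Hairpins that shared no such run numbered 926, of which 193 were tested, 100 called higher and 36 lower. Both sets of counts stand against 46.3% called higher and 18.8% lower over all 611. The members of a family of 3 begin like a transfer RNA. They are shown with capitals at the motif cucaguggu, searched on the strand given, which is found in 3 of 1461 hairpins (0.205%). The motif was chosen after the values were seen. The shorter uagcucag, which overlaps it, is in 22 (1.51%), and the changes of those 22 as a set were not examined here.
chr15:76724515-76724573, plus strand: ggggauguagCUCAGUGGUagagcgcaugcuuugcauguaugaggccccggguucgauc
chr27:1812856-1812917, minus strand: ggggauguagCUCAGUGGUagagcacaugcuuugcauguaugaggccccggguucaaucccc
All 3 rose, and their counts were nearly the same, so they are 1 measurement. The first held 111, 69.8, 63.1 and 86.3 CPM in Adult and 2470, 10467, 2357 and 2735 CPM in Sperm (log2 fold change 5.77, SE 0.63, adjusted p = 1.7e-11). Sperm 2 stood well above the other Sperm samples.

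Levels at the earlier testis stages placed the changes in sperm beside those of development. These values come from a scaling of all 17 samples and carry no test. The samples numbered 31a and 31b in Infant may come from 1 animal, as may those numbered 3a and 3b in Pre-puber. miR-34c stood at 25.3 ± 13.2 CPM in Infant, 725 ± 1169 CPM in Pre-puber, 14780 ± 4385 CPM in Puber, 34210 ± 6146 CPM in Adult and 94790 ± 48820 CPM in Sperm (mean ± SD, n = 3, 3, 3, 4 and 4), and miR-449a and miR-8908k climbed through the same stages. miR-509a-5p stood at 253 ± 79.2 CPM in Infant, 11950 ± 9825 CPM in Pre-puber, 26950 ± 2736 CPM in Puber, 17150 ± 3512 CPM in Adult and 6.33 ± 3.41 CPM in Sperm. It was scarce in Infant, abundant in Puber and Adult, and nearly absent in Sperm, as were miR-20b (11.9 ± 5.64 CPM in Infant, 1083 ± 1660 CPM in Pre-puber, 2681 ± 526 CPM in Puber, 2822 ± 410.3 CPM in Adult and 6.05 ± 4.31 CPM in Sperm) and miR-514a. Another set of fallen miRNAs was abundant already in Infant: miR-450b-5p (11270 ± 1781 CPM in Infant, 12530 ± 5478 CPM in Pre-puber, 10950 ± 3197 CPM in Puber, 4340 ± 549.8 CPM in Adult and 2.55 ± 3.09 CPM in Sperm), miR-145 and miR-199a-5p. miR-191a ranged from 5700 to 8678 CPM over the testis stages against 573300 CPM in Sperm, and miR-122 from 10.5 to 36.8 CPM against 16500 CPM. miR-135a, low in Adult, was high at both ends, with 812 ± 314 CPM in Infant, 128 ± 76.2 CPM in Pre-puber, 51 ± 27 CPM in Puber, 43.8 ± 17.7 CPM in Adult and 840.0 ± 288 CPM in Sperm.

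**Figure D5:**
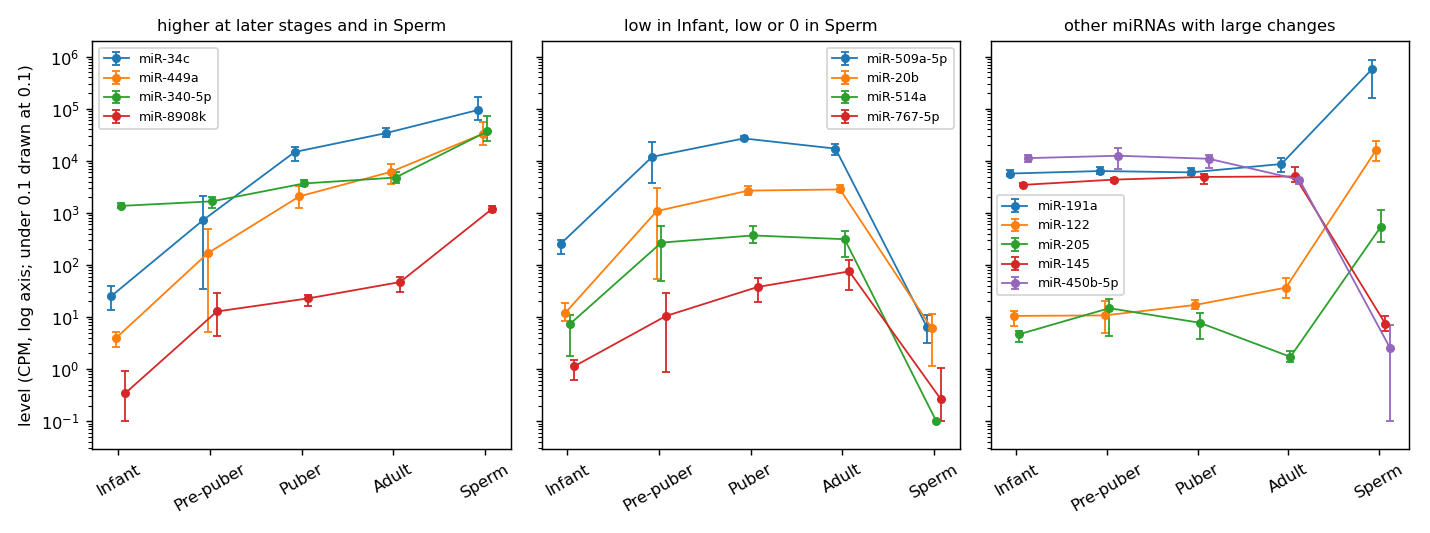
Mean level (y axis, CPM on the scaling of 17 samples, log axis, values under 0.1 drawn at 0.1) of 13 miRNAs in Infant, Pre-puber, Puber and Adult testis and in Sperm, with bars from the lowest to the highest sample of each group (3 samples in the first 3 groups, 4 in the last 2). The left panel rises from Infant to Sperm, while miR-509a-5p in the middle panel goes from 253 CPM in Infant to 17150 CPM in Adult and 6.33 CPM in Sperm.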

How the data were processed

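The deposited table held whole read counts of 1763 entries in 17 samples: 302 annotated entries (274 names, with the entry of the highest summed count kept for the 22 names that had more than 1) and 1461 predicted hairpins. The authors also deposited RPM values, which equal each count over its column's total, rescaled, and were used only as a check. Trimmomatic and EquCab3.0 are named in the submitters' processing notes. The aligner, the counting program, the miRNA annotation and the strand setting are not given in the sources used here. Columns beginning with se were taken as Sperm and ho4 as Adult 4, the reading under which each column matches 1 sample. A column of totals was not used here.

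Counts of the 8 samples were tested with edgeR 4.0.16 in R 4.3.3 (filterByExpr by group, TMM scaling, quasi-likelihood test, Benjamini-Hochberg adjusted p under 0.05), checked on simulated data. Annotated miRNAs and hairpins were fitted separately, hairpins with the scaling factors of the miRNAs. Standard errors (SE) are the log2 fold change divided by the square root of F, an approximation. limma 3.58.1 (voom) and DESeq2 1.42.0, other scalings, no filter and leaving out each sample were alternatives. The 6 scalings counted for the annotated miRNAs were TMM, RLE, upper quartile, the annotated total, the total without miR-191a, and TMM with the hairpins included. Detection counts and the hairpin share had exact permutation tests.

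Named miRNAs were the 12 largest called rises and falls with no overlap and at least 50 CPM in either group, the 10 most abundant of each group, up to 4 of each list, and the detection and hairpin sets. Members and lists were chosen with earlier results of these data known. The X-linked, miR-8908, and pancreas and gut lists, the pairs of miRNAs compared by ratio, the hairpin motif and the other members named without being covered by that rule were chosen after the values were seen. Lists of pluripotency clusters, miR-23, miR-24 and miR-27, of miR-29, and of miR-221 and miR-222 had no tested member. Seed families and the balance of precursor arms were not analysed here. Intervals and floors cover counting error only.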

Additional observations from a re-analysis of the deposited data

Results flagged for a closer look

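In 21 of 212 groups of 4 samples (9.91%) 1 sample stood apart, its gap to the next sample being a larger share of the group's range than Dixon's 95% critical value. The rate of about 1 in 20 holds for independent groups of normally distributed values. These groups share the same 8 samples, and a group with reads in only 1 sample stands apart by construction. The share can therefore not be set against chance. Sperm 2 was the sample apart in 12 of the 21. It was high for miR-34c (259700 CPM), miR-34b-5p (11880 CPM), miR-340-5p (111200 CPM), miR-21 (180800 CPM), miR-190b (536.2 CPM), miR-379 (267.3 CPM) and miR-8908g (3462 CPM), and for the hairpins at chr6:7834344-7834399 (38050 CPM) and chrX:119911163-119911218 (12320 CPM). It was also apart for miR-497 (4.904 CPM), miR-503 (1.635 CPM) and miR-767-5p (1.635 CPM), which rest on few reads.

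Adult 33 stood apart for miR-451 (696.3 CPM) and miR-486-5p (2165 CPM), both of red cells, for miR-205 (1.597 CPM), and for the hairpin at chr8:94388496-94388564, where its 0.09396 CPM is the single Adult read. The single Adult read of chr8:78292086-78292135 gave Adult 4 its 0.1475 CPM. Adult 20 was high for miR-21 (100200 CPM). Sperm 3 was high for miR-382 (1960 CPM) and low for the hairpin at chr6:80187889-80187965 (4992 CPM). Sperm 4 was high for miR-126-5p (52.9 CPM). The cause of these deviations was not tested.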

How the results depend on the processing

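The number of annotated miRNAs called ranged from 122 to 151 over all alternatives and from 130 to 137 when 1 sample was left out. The annotated total as the scale gave 36 higher calls in place of 68. Under that scale these log2 fold changes turned negative: let-7a (-1.51), miR-142-5p (-1.71), miR-181a (-0.52), miR-196a (-1.32), miR-20a (-0.16), miR-21 (-1.13), miR-26a (-0.67), miR-486-5p (-1.44), miR-8908g (-0.53) and miR-99a (-1.13). let-7a was also negative when the total without miR-191a set the scale (-0.78), and miR-26a when hairpins were fitted together with miRNAs (-0.035). The causes were not tested. For hairpins, 112 were higher and 249 lower with the annotated total, and 169 and 237 when scaled on the hairpins. Without the filter on low counts, which tests more hairpins, 632 were called, 485 of them higher. The detection difference was -32.2 to -27.3 with 1 sample left out, where 4 against 3 samples cannot pass an exact two-sided test at 0.05. The difference in the hairpin share was 1.11 to 4.11 percentage points with 1 sample left out. Scaling by the total without miR-191a and both thinnings were chosen after seeing the data. No paired analysis was possible because the groups share only the number 4. Alternatives for seed families and arm balance were not run. Depth limits the miRNAs with a few reads in 1 group, whose ratios are given with their counting interval.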

Other observations

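Sperm samples differed among themselves more than testis samples. Over the 63 miRNAs with at least 100 CPM in both groups, the median SD of log2 CPM was 0.45 in Adult and 0.62 in Sperm. Of the 49 miRNAs with at least 1000 CPM in Sperm, Sperm 2 was highest for 19 and Sperm 3 lowest for 20. The widest spread was that of miR-125b-5p, a relative of the nematode lin-4, with 2773, 1493, 13104 and 5223 CPM in Sperm 1, 2, 3 and 4. Its highest level was 8.77 times its lowest, and it was called lower than in Adult only without Sperm 3 (log2 fold change -1.67, edgeR adjusted p = 0.0018) among the settings that leave out 1 sample. It was also called lower with limma-voom, DESeq2, no filter, all 17 samples fitted, hairpins fitted together, and every other scaling tried. miR-423-5p stood at 4738, 3534, 17420 and 8495 CPM, with the highest level again in Sperm 3, and its rise of 6.18-fold was 4.09-fold without that sample. miR-15b stood at 2892, 1537, 859 and 441 CPM, miR-139-5p at 1175, 428, 1984 and 1868 CPM, and miR-146a at 7816, 2895, 2501 and 10179 CPM. All but miR-125b-5p were called higher in Sperm, though miR-15b, miR-146a and miR-423-5p lost the call with the annotated total as the scale, and miR-146a also with hairpins fitted together.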
